A study of Homo sapiens with 4 samples.

Results

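The comparison is between the H3K27ac peak lists of K562 cells carrying either of 2 shRNAs against TFAM, called hairpin 1 (TFAM-sh1) and hairpin 2 (TFAM-sh2) after the labels. These are 2 of the 4 samples of the series, chosen by their titles. The other samples are K562 cells with the control shRNA (shNT), whose list is given beside many results as background measured in the same way, and a K562 input, which was not analysed here. K562 is an established human erythroleukaemia line, all cells were transduced with an shRNA, and the series set out to examine H3K27ac where loss of TFAM leads to excess histone acetylation. No source used here gives the time after transduction, the level of TFAM left, the number of clones or the read depth. Each hairpin has 1 library, so a difference between the lists cannot be told apart from a difference between 2 libraries, and no test is given. Percentages carry exact Clopper-Pearson 95% intervals in parentheses, which cover counting error only.

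H3K27ac is acetylation of lysine 27 of histone H3, placed mainly by the acetyltransferases EP300 and CREBBP at active promoters and enhancers. TFAM is a nuclear-encoded protein that coats mitochondrial DNA and starts its transcription. A pair of hairpins against the same mRNA share the target and differ in their other, sequence-dependent effects. In erythroid cells the mark lies at targets of GATA1, TAL1 and their cofactors, while clusters of zinc finger genes on chromosome 19 carry broad heterochromatin with active promoters set within it.

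The promoters and repeats below illustrate the gene groups and repeats described later and are not the highest-ranked differences. The first 3 are stretches of 150 bases that end just before the start sites of red cell genes with a promoter peak in one hairpin alone: TAL1 (chr1:47697898-47698047) and RHAG (chr6:49604553-49604702) in hairpin 1, and ALAS2 (chrX:55057411-55057560) in hairpin 2. All 3 are on the minus strand of GRCh37 and are written along the gene, with the core GATA word GATAA or its complement TTATC in capitals.
TAL1: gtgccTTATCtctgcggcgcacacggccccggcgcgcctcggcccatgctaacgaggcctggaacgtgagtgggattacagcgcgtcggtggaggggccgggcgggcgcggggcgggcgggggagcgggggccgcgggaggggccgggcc
RHAG: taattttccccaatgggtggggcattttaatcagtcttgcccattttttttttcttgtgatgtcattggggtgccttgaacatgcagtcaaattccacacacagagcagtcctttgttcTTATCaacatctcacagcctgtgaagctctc
ALAS2: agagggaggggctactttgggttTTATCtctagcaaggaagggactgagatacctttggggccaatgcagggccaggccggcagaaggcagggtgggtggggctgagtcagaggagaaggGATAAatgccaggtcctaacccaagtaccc

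The next 2 stretches of 150 bases precede zinc finger genes of chromosome 19 that had a promoter peak in hairpin 2 and none in hairpin 1. ZNF844 (chr19:12175396-12175545) is on the plus strand and ZNF329 (chr19:58662157-58662306) on the minus strand of GRCh37. Capitals mark CG dinucleotides, of which ZNF844 has 10 and ZNF329 has 19.
ZNF844: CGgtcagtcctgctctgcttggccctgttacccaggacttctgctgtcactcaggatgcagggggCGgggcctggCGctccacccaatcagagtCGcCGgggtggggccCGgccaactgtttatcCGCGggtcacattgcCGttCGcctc
ZNF329: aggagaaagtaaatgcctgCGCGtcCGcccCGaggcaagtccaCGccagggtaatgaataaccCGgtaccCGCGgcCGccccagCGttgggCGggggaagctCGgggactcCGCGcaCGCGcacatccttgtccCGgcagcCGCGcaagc

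The last set comes from repeated sequence with a peak in hairpin 2 and none in hairpin 1, of which the array units also had control peaks. RN7SKP203 (chr2:76672437-76672536, minus strand) and RN7SKP255 (chr14:90178855-90178954, plus strand) are copies of the gene for 7SK, the small nuclear RNA that holds P-TEFb inactive, and their first 100 bases are shown with no capitals. The copies differ at 2 positions counted from the first base shown, T33C and C59T. The other 2 are the same 120-base stretch of neighbouring units of a tandem array on the X chromosome (chrX:114966726-114966845 and chrX:114969709-114969828, plus strand), with CG in capitals. They differ by A89C.
RN7SKP203: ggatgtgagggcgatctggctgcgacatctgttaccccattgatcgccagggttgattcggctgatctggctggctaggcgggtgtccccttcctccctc
RN7SKP255: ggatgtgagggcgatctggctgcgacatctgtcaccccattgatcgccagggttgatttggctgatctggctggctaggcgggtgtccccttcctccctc
Array unit 1: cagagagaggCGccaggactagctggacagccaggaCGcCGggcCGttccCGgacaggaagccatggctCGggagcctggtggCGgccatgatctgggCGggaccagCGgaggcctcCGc
Array unit 2: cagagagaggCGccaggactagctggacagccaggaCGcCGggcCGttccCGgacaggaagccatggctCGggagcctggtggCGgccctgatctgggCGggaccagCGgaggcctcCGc

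The hairpin 2 list held 27007 peaks against 23819 for hairpin 1. The promoter of TFAM was marked in both, by peaks of 2787 bp (hairpin 1) and 2447 bp (hairpin 2). An shRNA acts on the mRNA, so a promoter peak is no measure of knockdown. Among erythroid genes, HBZ, the embryonic alpha-like globin, and LMO2, a partner of TAL1, had promoter peaks in both lists. GATA1, the master erythroid factor, had none in either hairpin or in the control, which does not show that its promoter was unmarked. The nearest peak lay 7906 bp from the GATA1 promoter (a window reaching 1 kb to either side of the start site) in hairpin 1 and 7491 bp in hairpin 2. Neither list held a peak on the mitochondrial chromosome.

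Joining peaks that overlapped by at least 1 bp gave 31565 regions, of which 18881 were shared by the hairpins. Hairpin 1 alone had a peak in 4777 regions (15.1% of all) and hairpin 2 alone in 7907 (25.0%). With the hairpin 2 list cut by score to the 23819 peaks of hairpin 1, the counts were 5600 and 5615. Of the shared regions, 18518 join 1 peak of each list, so lists of equal length must give nearly equal counts. That setting therefore cannot show whether hairpin 2 has an excess. Regions of one hairpin alone were weakly ranked, with a median score percentile of 18.9 in hairpin 1 and 21.7 in hairpin 2. For shared regions the median was 55.2, taking the lower percentile of the hairpins at each region. The score percentile of a peak is the share of peaks of its own list that score below it. A control peak was present at 31.2% (29.9 to 32.5) of the regions of hairpin 1 alone, at 31.7% (30.7 to 32.8) of those of hairpin 2 alone and at 89.4% (89.0 to 89.8) of shared regions.

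Counterparts were nearly complete among strong peaks and scarce among weak ones. In the lowest 10% of each list by score, 57.4% (55.4 to 59.4) of hairpin 1 peaks had no overlap in hairpin 2, and 72.6% (70.9 to 74.3) of hairpin 2 peaks had none in hairpin 1. In the highest 10% those shares were 0.336% and 0.592%. Width gave a different shape. Peaks of hairpin 1 lacked a counterpart in 47.2% of cases when under 1 kb, in 6.40% at 3 to 4 kb, and again in 21.6% (16.5 to 27.4) at 7 kb and over. For hairpin 2 the shares were 65.5%, 8.55% and 14.7% (11 to 19). Among peaks at score percentile 75 and above and at least 5 kb wide, 8 of 163 in hairpin 1 lacked a hairpin 2 peak, and 0 of 275 in hairpin 2 lacked a hairpin 1 peak (upper limit of the interval 1.33%). No peak of either hairpin was wider than 8841 bp, so the absence of a peak over a broad domain does not show that the domain was unmarked.

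**Figure D1:**
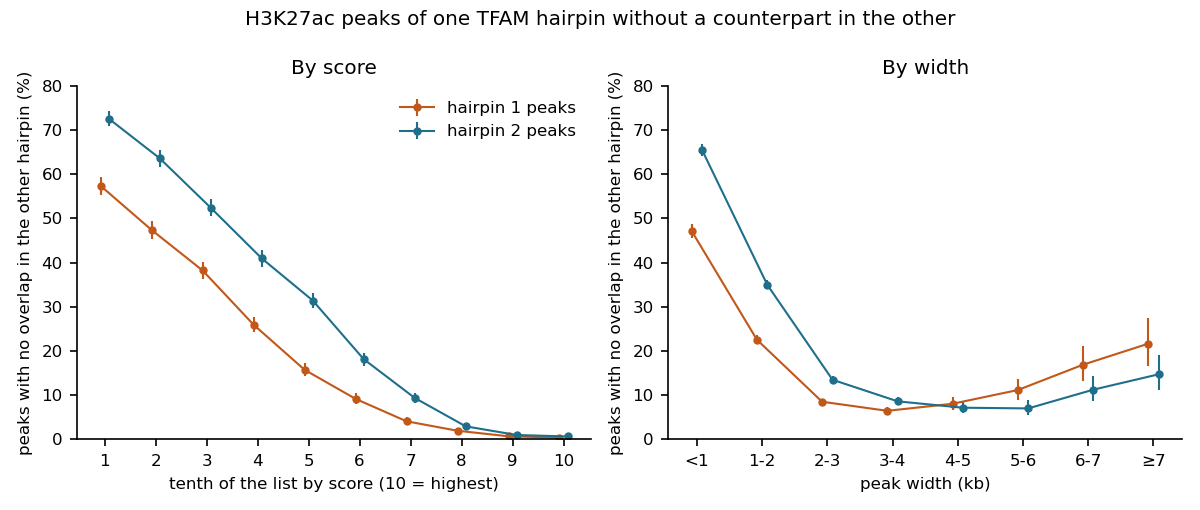
Share of peaks without an overlap in the other hairpin (y axis, percent), by score in steps of 10% of the list (left) and by peak width in kb (right), with exact 95% intervals; orange is hairpin 1 and blue hairpin 2. The share falls from 57.4% and 72.6% at the lowest scores to below 1% at the highest, and against width it falls and then rises again, to 21.6% and 14.7% at 7 kb and over.

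The regions of one hairpin alone were mostly distal. Promoters, here 1 kb on each side of the start site of a protein-coding gene, made up 10.6% (9.73 to 11.5) of the regions of hairpin 1 alone and 7.03% (6.48 to 7.62) of those of hairpin 2 alone, against 48.3% of shared regions. Introns made up 42.0% of hairpin 1 alone and 38.7% of hairpin 2 alone. Intergenic sequence made up 36.9% (35.5 to 38.3) and 42.4% (41.4 to 43.5). Exons outside promoters differed little, with 10.5% and 11.8%. A promoter of a lncRNA gene with no coding promoter beside it was found in 4.46% of hairpin 1 alone, 4.38% of hairpin 2 alone and 6.38% of shared regions.

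The regions of one hairpin alone were poorer in G+C than shared ones, with medians of 46.7% in hairpin 1 alone, 47.4% in hairpin 2 alone and 50.8% in shared regions. The order of the hairpins turned when only the higher-scoring 50% of each list was kept, with 51.5% in hairpin 1 alone and 48.6% in hairpin 2 alone. In that setting a region counts as alone when it overlaps no kept peak of the other hairpin. It can still overlap a weaker peak that was left out. Over 5 groups of regions from the poorest to the richest in G+C, the share in hairpin 1 alone went from 20.9% to 12% and that in hairpin 2 alone from 34.4% to 18.3%. Regions in which at least 50% of the 32-base words occur more than once in the genome made up 8.19% (7.4 to 9.0) of hairpin 1 alone, 11% (10.3 to 11.7) of hairpin 2 alone and 5.65% of shared regions. The authors kept only reads that fitted a single place, so coverage in such sequence is limited in both libraries.

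At shared regions the hairpin 2 peaks were slightly wider. The median covered length was 2221 bp in hairpin 1 and 2392 bp in hairpin 2, and the median log2 ratio of hairpin 2 to hairpin 1 was 0.08 with quartiles of -0.17 and 0.39. Hairpin 2 covered at least 2-fold more sequence in 1286 regions (6.81%) and hairpin 1 in 690 (3.65%). Promoters moved less than other classes: 2.55% of shared promoters were at least 2-fold wider in hairpin 2 and 1.38% in hairpin 1, while for introns the shares were 10.8% and 6.09%. The median log2 ratio fell from 0.17 in the regions poorest in G+C to 0.03 in the richest.

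The promoters that were widest in hairpin 2 relative to hairpin 1 were taken from those at score percentile 50 or more in both lists. SLC30A10, a manganese exporter, had 1038 bp covered in hairpin 1, 3453 bp in hairpin 2 and 1375 bp in the control, a log2 ratio of 1.73. FOS, the immediate early AP-1 subunit, had 1143, 3626 and 3205 bp in the same order, a log2 ratio of 1.67. The control was near hairpin 2 at FOS and near hairpin 1 at SLC30A10. PLS1 (plastin, an actin-bundling protein), ITGB5 (an integrin subunit) and TUFT1 had log2 ratios from 1.57 to 1.73.

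Promoters narrower in hairpin 2 included DGKD, a diacylglycerol kinase, with 2502 bp in hairpin 1, 806 bp in hairpin 2 and 1773 bp in the control. ZNF429 had 3770, 1258 and 2843 bp. The region over PBX2, a HOX cofactor, and GPSM3 had 9153, 3344 and 8554 bp. At these 3 the control lay nearer to hairpin 1. CLN3 with APOBR had 5400, 2109 and 2179 bp, and CNKSR3 had 6447, 2551 and 2461 bp, so that the control was near hairpin 2 there. FBXO48 with APLF completed the 6, with a log2 ratio of -1.32. Despite their narrower peaks, DGKD, ZNF429, CLN3 and CNKSR3 had higher score percentiles in hairpin 2 (77.6, 90.6, 91.2 and 78.8) than in hairpin 1 (62.8, 70.0, 73.8 and 54.6).

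Among the strongest regions of one hairpin alone, those of hairpin 1 were broader at the median, and those of hairpin 2 included a set of narrow peaks. At score percentile 75 and above, hairpin 1 had 46 such regions with a median width of 3822 bp, of which 28 were promoters, 29 were at least 3 kb wide and 37 also had a control peak. Hairpin 2 had 67, with a median width of 2054 bp, of which 30 were promoters, 14 were at least 3 kb wide and 50 had a control peak. The median distance to the nearest peak of the other hairpin was 15.2 kb for hairpin 1 and 71.2 kb for hairpin 2. Zinc finger genes, a group chosen after its values were seen, accounted for 12 of the 67 and 0 of the 46. That group holds 566 of the 20149 protein-coding genes.

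**Figure D2:**
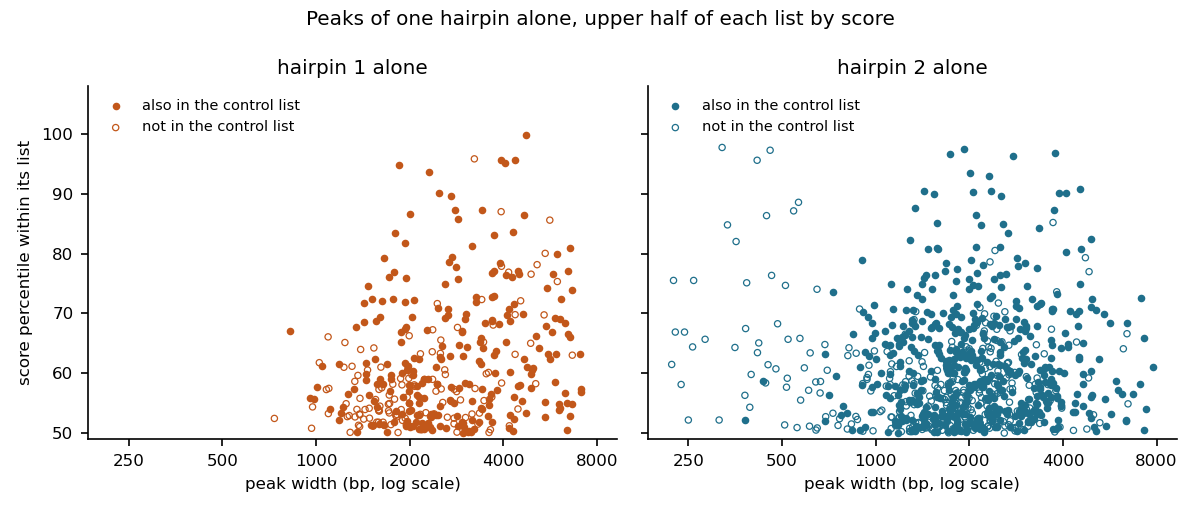
Peaks of one hairpin alone at score percentile 50 and above, with peak width in bp (x axis, log scale) against score percentile within the list (y axis); filled points also had a control peak and open points did not. Hairpin 2 has a group of high-scoring peaks under 600 bp, nearly all of them open points, and hairpin 1 has none above score percentile 75 at that width.

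The highest-ranked promoter in hairpin 1 alone was that of COLGALT2, a collagen galactosyltransferase (chr1:184004438-184007667). Its peak spanned 3230 bp at score percentile 95.8, with no peak in hairpin 2 or in the control, where the nearest ones lay 11.9 and 11.6 kb away. The next were TRAPPC10, a vesicle tethering subunit (4352 bp, control 4066 bp), the shared promoter of SAFB and SAFB2, nuclear matrix-binding proteins (3928 bp, control 3759 bp), and SCAF4, which acts on transcription termination (4040 bp, control 3884 bp). All 3 were covered to a similar length in the control and had 0 bp in hairpin 2. MATK, a kinase that inhibits Src-family kinases and is known from megakaryocytes, had 1846 bp in hairpin 1, 0 bp in hairpin 2 and 1293 bp in the control. SLC16A9, a monocarboxylate transporter family member, had 2315, 0 and 1182 bp, with the nearest hairpin 2 peak 194 kb away. COL23A1, PYCARD (the inflammasome adaptor ASC), NFE2L1 (a factor that induces proteasome genes) and RAP1GAP completed the 10, at score percentiles from 87.3 to 90.1, each with a control peak.

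Outside promoters, the top region of hairpin 1 alone was chr1:16968387-16973110, an intergenic stretch of 4724 bp at score percentile 99.8. The control covered 4223 bp of it, the nearest hairpin 2 peak was 11.2 kb away, and 48.4% of its sampled words occur more than once in the genome. Regions next in rank had as their nearest start site that of GHRH, MRPL23, NDUFV2 (a complex I subunit) or ACOT11, and these 4 had a control peak.

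In hairpin 2 alone, 5 of the 10 highest-ranked promoters belonged to zinc finger genes, ZNF548 among them. ZNF718 had 2764 bp in hairpin 2 at score percentile 96.2, 0 bp in hairpin 1 and 2435 bp in the control. ZNF433 had 2307 bp in hairpin 2, 0 bp in hairpin 1 and 930 bp in the control, and ZNF844 had 1539, 0 and 1195 bp in the same order. ZNF300 had 1342, 0 and 1097 bp, with the nearest hairpin 1 peak 102 kb away. The other promoters were those of RPS2 with RNF151, TUBB4B (a beta-tubulin), RNASET2 (a lysosomal ribonuclease), PPP1R35 and SMAP2. RPS2, a small ribosomal subunit protein, had 4528 bp in hairpin 2, 0 bp in hairpin 1 and 4252 bp in the control. SMAP2 was the only one of the 10 without a control peak (3718 bp in hairpin 2, 0 bp in both other lists).

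The 6 highest-ranked regions of hairpin 2 outside promoters included 3 narrow peaks in hairpin 2 alone of all lists. The peak at chr2:76672219-76672539 was 321 bp wide at score percentile 97.7 and lay on RN7SKP203, whose first bases are printed above. That at chr12:20704219-20704676 was 458 bp wide, in an intron of PDE3A and over a processed pseudogene. That at chr9:9442022-9442437 was 416 bp wide, in an intron of PTPRD and over RN7SL5P, a copy of the RNA gene of the signal recognition particle. The nearest hairpin 1 peak was 572, 805 and 1622 kb away, respectively. The other 3 had a control peak, at chr16:33962562-33964490, chr17:21830310-21834088 and chrX:115003756-115005493.

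Narrow, high-scoring peaks were then counted in every list, a group chosen after its values were seen. Peaks under 600 bp at score percentile 75 and above numbered 0 in hairpin 1, 19 in hairpin 2 and 5 in the control, out of 1006, 1226 and 1063 peaks of that width. Of the 19, 12 had no counterpart in hairpin 1. With peaks under 1 kb, 13 high-scoring peaks of hairpin 2 were without a counterpart, and the one over the ZNF329 promoter was the only one of them with a control peak. Distances from these 13 to the nearest hairpin 1 peak ran from 1.29 to 1622 kb. Copies of 7SK lay under 4 of the 13: RN7SKP203, RN7SKP255 (334 bp, score percentile 84.8), RN7SKP71 (356 bp, 82.0) and RN7SKP80 (260 bp, 75.5). Over the first 100 bases RN7SKP71 differed from RN7SKP203 at 6 positions.

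Across the annotation, peaks over non-coding genes and pseudogenes were found in hairpin 1 alone for 713 of 44310 genes (1.61%) and in hairpin 2 alone for 1333 (3.01%). Processed pseudogenes, which are retrotransposed copies of mRNAs, were at 51 in hairpin 1 alone and 169 in hairpin 2 alone, so that hairpin 2 held 76.8% (70.7 to 82.2) of them against 65.2% (63.0 to 67.2) of all non-coding genes. Of those 169, 30 had a control peak. Copies of 7SK were at 0 and 7 of 294, and RN7SL genes and copies at 5 and 10 of 848. miRNA genes were even, at 35 and 33. LncRNA genes were at 500 and 865, close to the split for coding gene bodies (564 and 937). These biotypes were chosen after their values were seen, and a peak over a gene body need not belong to that gene.

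A single locus on the X chromosome separated the hairpins over its whole length and was chosen after its values were seen. It is a tandem array known as DXZ4, whose units bind CTCF on the inactive X chromosome. Between chrX:114953160-115005493, hairpin 2 had 16 peaks over 23250 bp, the control had 13 peaks over 14686 bp, and hairpin 1 had none. The nearest hairpin 1 peak to an array peak was 1649 kb away. The hairpin 2 peaks were 521 to 1858 bp wide at score percentiles from 19.4 to 96.6, with a median of 44.3. Their midpoints were a median of 3065 bp apart. The 120-base stretch printed above was found 14 more times in the array at no less than 99.2% identity, with a median step of 2984 bp. In the median array region all sampled 32-base words occur elsewhere in the genome, and reads fitting several places were not kept.

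**Figure D3:**
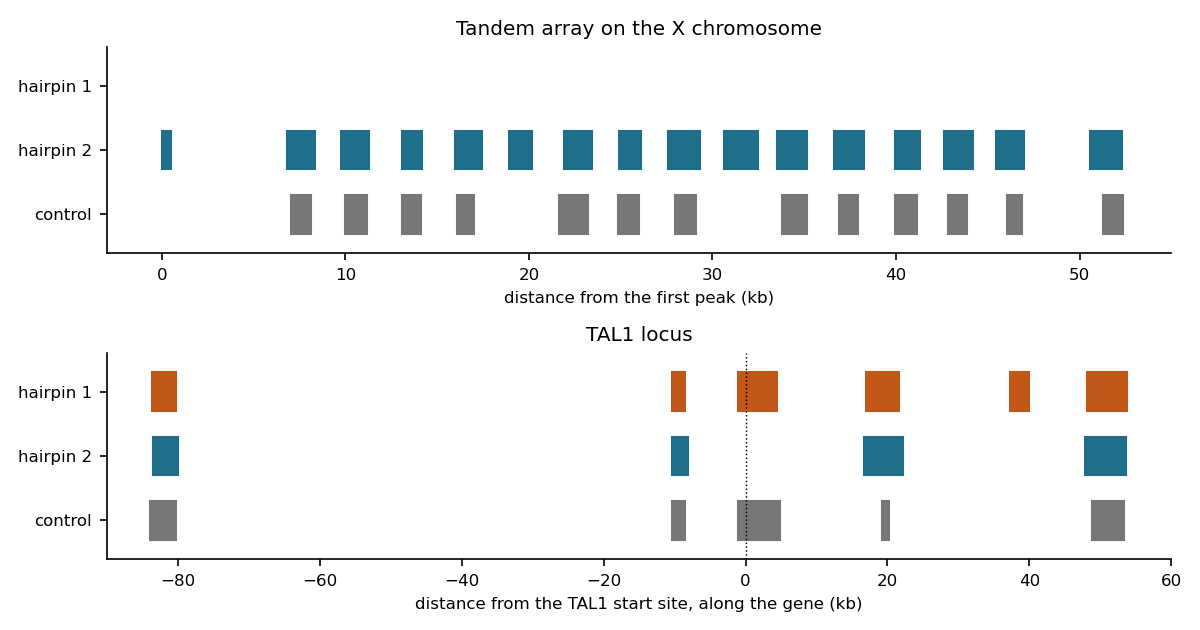
Peaks of each list as blocks along a tandem array on the X chromosome (top, distance in kb from the first peak) and along the TAL1 locus (bottom, distance in kb from the start site, dotted line, along the gene). Hairpin 2 has 16 peaks and the control 13 on the array, with some wider gaps between them, where hairpin 1 has none, and at TAL1 the peak over the start site is present in hairpin 1 and the control and absent in hairpin 2.

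Windows of 1 Mb showed where the regions of one hairpin alone gathered. More regions were in hairpin 2 alone in 1462 of 2495 windows, more in hairpin 1 alone in 582, and the numbers were equal in 451. The windows furthest toward hairpin 2 were on chromosome 17, from 21 to 22 Mb (0 regions in hairpin 1 alone, 17 in hairpin 2 alone), from 20 to 21 Mb (0 and 16) and from 17 to 18 Mb (4 and 20). From 20 to 22 Mb there were 11 peaks over 17560 bp in hairpin 1, 45 over 112945 bp in hairpin 2 and 22 over 35884 bp in the control. The X chromosome window that holds most of the array and the window from 58 to 59 Mb on chromosome 19, a zinc finger gene cluster, followed with 0 and 15 each. In the latter 21 regions were shared, and 7 of the 15 had a control peak. Toward hairpin 1 the furthest were chromosome 10 from 15 to 16 Mb (12 and 1) and chromosome 5 from 14 to 15 Mb (13 and 2). The third place was tied between chromosome 1 from 150 to 151 Mb, chromosome 12 from 43 to 44 Mb and chromosome 19 from 41 to 42 Mb, each with 9 more in hairpin 1. In the chromosome 12 window hairpin 1 had 9 peaks at score percentiles from 2.21 to 37.3, hairpin 2 none and the control 1.

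By whole chromosome the split was more even. Hairpin 2 held 62.3% (61.5 to 63.2) of the regions of one hairpin alone. Its share ran from 55.2% (49.9 to 60.5) on chromosome 14 to 67.3% (62.5 to 71.9) on the X chromosome. With equal list lengths these 2 shares were 43.6% and 56.7%. In that setting the counts over all regions are nearly equal by construction (5600 and 5615), so lower hairpin 2 shares are built in.

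Promoters were next compared gene by gene. The 20149 protein-coding genes comprised 10451 with a promoter peak in both hairpins, 577 in hairpin 1 alone (2.86%), 608 in hairpin 2 alone (3.02%) and 8513 in neither. A control peak was present at 244 of the 577 and at 269 of the 608. The order of these counts turned with equal list lengths, which remove hairpin 2 peaks only, at 663 in hairpin 1 alone and 508 in hairpin 2 alone. In the higher-scoring 50% of each list, where weaker peaks count as absent, they were 509 and 785.

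Zinc finger genes stood at 8 in hairpin 1 alone and 67 in hairpin 2 alone, of 566 genes with symbols of the ZNF, ZFP, ZSCAN and ZKSCAN series. Most of these encode KRAB or SCAN zinc finger proteins, DNA-binding repressors that silence transposable elements. Their shares were 1.41% (0.612 to 2.77) in hairpin 1 alone and 11.8% (9.29 to 14.8) in hairpin 2 alone. Over all protein-coding genes the shares were 2.86% and 3.02%. On chromosome 19 the counts were 2 and 50 of 261, or 0.766% and 19.2% (14.6 to 24.5), and 39 of the 50 had a control peak. On other chromosomes they were 6 and 17 of 305. The other 1219 genes of chromosome 19 were at 46 and 39, so the difference did not run along the chromosome as a whole. A further 376 zinc finger genes had a promoter peak in both hairpins.

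Values at single zinc finger genes had the same form. ZNF551 had 1578 bp covered within 5 kb of its start site in hairpin 2, 0 bp in hairpin 1 and 1305 bp in the control, with score percentiles of 85.1 in hairpin 2 and 58.9 in the control. ZNF134 had 1473, 0 and 995 bp and ZFP82 had 1689, 0 and 1170 bp in the same order. ZNF329 had 905, 0 and 733 bp, at score percentile 79.0 in hairpin 2 and 11.5 in the control. The control peaks of these genes were thus present but ranked lower than those of hairpin 2. A promoter peak in hairpin 2 alone without a control peak was seen at ZNF585B (1340 bp, score percentile 56.7) and ZNF345 (979 bp, 41.5). In the opposite direction, ZKSCAN3 on chromosome 6 had 5548 bp in hairpin 1, 0 bp in hairpin 2 and 5850 bp in the control. The genes of this paragraph were chosen after their values were seen. The count of 67 for hairpin 2 ranged from 65 to 69 over all alternatives tried.

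**Figure D4:**
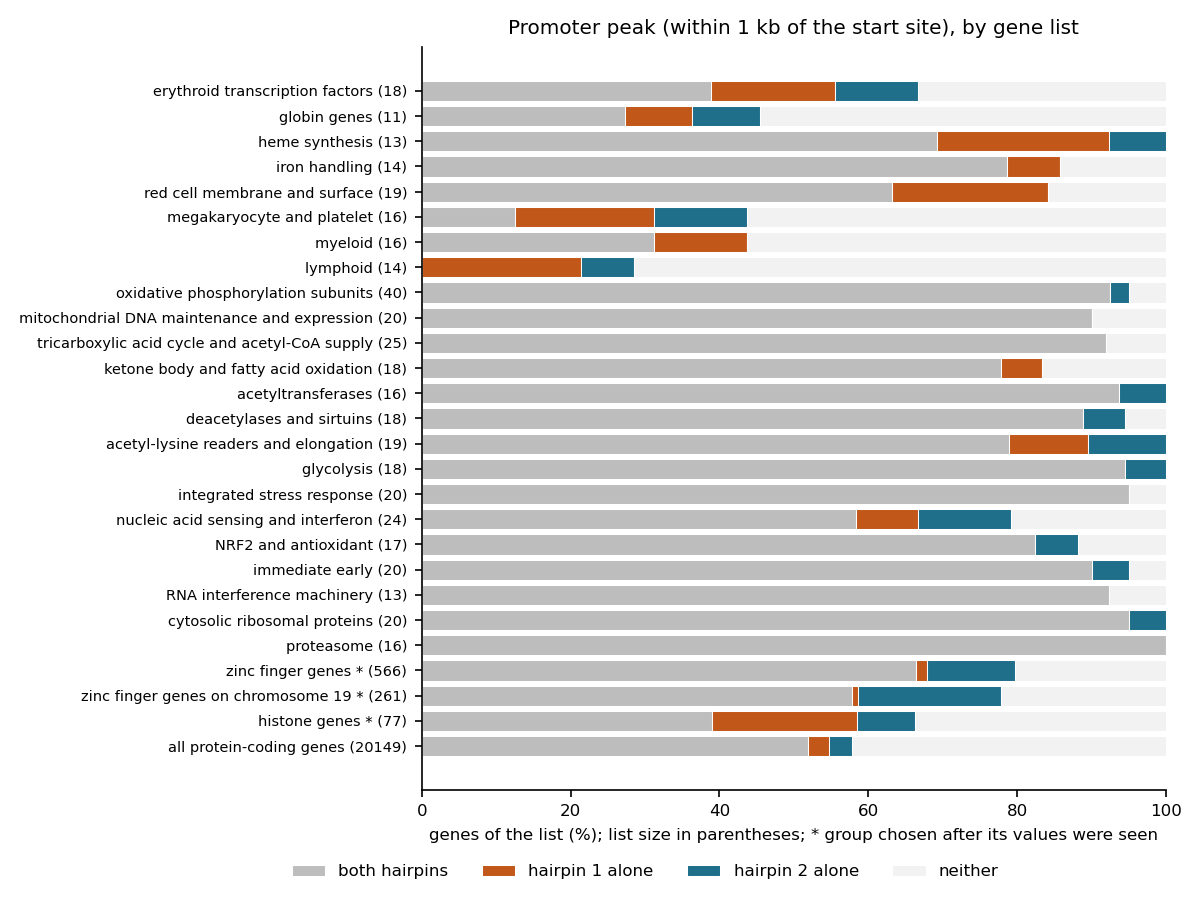
Share of the genes of each list (x axis, percent, list size in parentheses) with a promoter peak in both hairpins, in hairpin 1 alone (orange), in hairpin 2 alone (blue) or in neither; groups with an asterisk were chosen after their values were seen. Orange segments are longest in blood-cell lists and histone genes, the blue segment is long for zinc finger genes on chromosome 19, and mitochondrial lists are almost wholly grey.

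Blood-cell genes leaned toward hairpin 1. Over the 8 blood-cell lists together, 20 of 121 genes had a promoter peak in hairpin 1 alone (16.5%, 10.4 to 24.4) and 7 in hairpin 2 alone (5.79%, 2.36 to 11.6), while 49 had one in both. The shares of all protein-coding genes were 2.86% and 3.02%, the second of which lies within the interval for hairpin 2 alone. The single blood-cell lists described below are small, with 11 to 19 genes each. A control peak was present at 11 of the 20 and 3 of the 7. Without peaks of 5 kb or wider the counts were 10 and 5. In the higher-scoring 50% of each list, where weaker peaks count as absent, they were 8 and 9.

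Among transcription factors of red cells, the promoters of TAL1, ZFPM1 and IKZF1 were marked in hairpin 1 alone. TAL1, which nucleates the erythroid activator complex, had 5523 bp within 5 kb of its start site in hairpin 1, 0 bp in hairpin 2 and 5929 bp in the control. Across the surrounding locus hairpin 1 listed 6 peaks (23721 bp in all), against 4 (17100 bp) for hairpin 2. The promoter peak and a weaker one downstream (2718 bp, score percentile 22.7) were those without a counterpart. ZFPM1, the GATA1 cofactor FOG1, had 6578 bp in hairpin 1, 0 bp in hairpin 2 and 5997 bp in the control. IKZF1, the lymphoid and erythroid factor Ikaros, had 6534, 0 and 6179 bp. CBFA2T3, a corepressor in the TAL1 complex, went the opposite way with 0 bp in hairpin 1, 7780 bp in hairpin 2 and 7577 bp in the control. BCL11A, the repressor of fetal globin, had 529 bp in hairpin 2 and 0 bp in the other lists. GATA2 had no promoter peak in either hairpin, but 2903 bp were covered near it in hairpin 1, 0 bp in hairpin 2 and 2492 bp in the control.

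Globin genes were mostly marked alike or in neither hairpin. HBZ had 3497 bp in hairpin 1, 5764 bp in hairpin 2 and 4555 bp in the control, and HBQ1, the theta globin, had 2323, 2685 and 1998 bp. HBD, the delta globin, had 1402, 1703 and 2178 bp. HBA2, an adult alpha-globin, had a promoter peak in hairpin 1 alone (1638 bp, 0 bp in hairpin 2), but it is a near-identical copy of HBA1, so reads may not be placed there. HBA1 had no promoter peak in either list, with 3564 bp covered nearby in hairpin 1 and 2123 bp in hairpin 2. HBM, HBB, HBG1, HBG2 and HBE1 had no promoter peak in either hairpin. AHSP, the chaperone of free alpha-globin, had a promoter peak in hairpin 2 alone (1369 bp, score percentile 19.8).

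Heme synthesis genes had 9 promoter peaks in both hairpins, 3 in hairpin 1 alone and 1 in hairpin 2 alone. PPOX, of the mitochondrial end of the pathway, had 6870 bp in hairpin 1, 0 bp in hairpin 2 and 3358 bp in the control. FECH, which inserts iron into protoporphyrin, had 2480, 0 and 0 bp in the same order. ALAS2, the erythroid enzyme of the first step, was marked in hairpin 2 alone, with 0 bp in hairpin 1, 5738 bp in hairpin 2 and 2506 bp in the control. Of 14 iron handling genes, 11 were marked in both hairpins and SLC11A2, the iron transporter DMT1, in hairpin 1 alone (5908 bp, none in the control).

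Red cell membrane and surface genes were at 12 in both hairpins, 4 in hairpin 1 alone and 0 in hairpin 2 alone. RHAG, the Rh-associated glycoprotein, had 5927 bp in hairpin 1, 0 bp in hairpin 2 and 7836 bp in the control, at score percentile 39.8 in hairpin 1 and 0.397 in the control. GYPC, a glycophorin, had 7034, 0 and 6366 bp. ANK1, the ankyrin that ties the membrane skeleton to band 3, had 6669, 0 and 0 bp. RHD had 7231, 1275 and 5249 bp, and reads there compete with its paralogue RHCE.

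Markers of other lineages, which K562 cells express in part, were mostly without a promoter peak in either hairpin, at 9 of 16 megakaryocyte and platelet genes, 9 of 16 myeloid genes and 10 of 14 lymphoid genes. Of the first group 2 genes were marked in both hairpins. NFE2L1 (which is not specific to that lineage), TUBB1 (platelet beta-tubulin) and GP1BB were marked in hairpin 1 alone. TUBB1 had 6167 bp in hairpin 1, 0 bp in hairpin 2 and 4852 bp in the control. ITGA2B, the platelet integrin CD41, and THPO were marked in hairpin 2 alone. ITGA2B had 2035 bp nearby in hairpin 1, 3613 bp in hairpin 2 and 8040 bp in the control. Of the myeloid genes 5 were marked in both hairpins, ITGAM and ELANE were in hairpin 1 alone, and no myeloid gene was in hairpin 2 alone. Of 14 lymphoid genes none had a promoter peak in both hairpins. CD3D, CD3G and CD79A had one in hairpin 1 alone and CD247 in hairpin 2 alone, all without a control peak. CD3D and CD3G lie beside each other, share the same hairpin 1 peak, and had 3551 and 1912 bp of hairpin 2 peaks nearby.

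**Figure D5:**
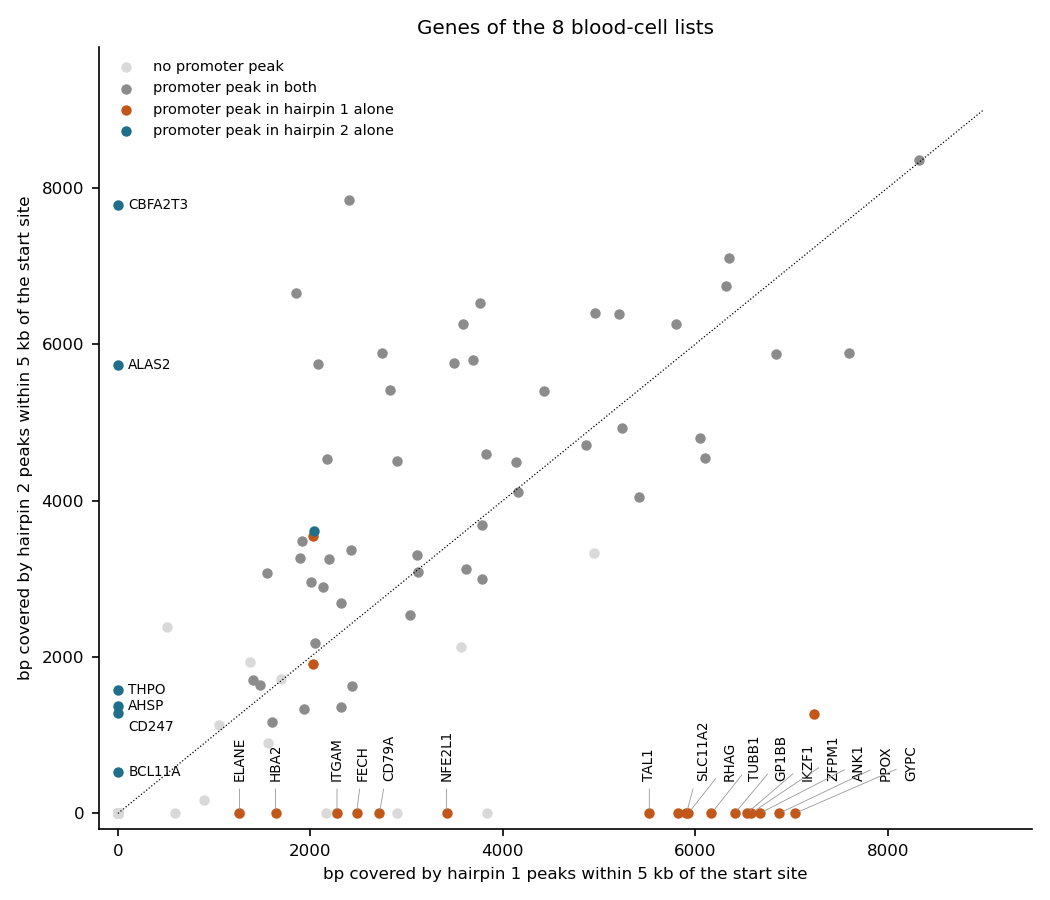
Length under peaks near the start site (5 kb each side, in bp) in hairpin 1 (x axis) and hairpin 2 (y axis) for the genes of the 8 blood-cell lists, coloured by the hairpin with a promoter peak; the dotted line marks equal coverage. A row of genes including TAL1, RHAG, ZFPM1, PPOX and GYPC lies on the x axis beyond 5 kb of coverage in hairpin 1 with none in hairpin 2, and CBFA2T3 and ALAS2 lie on the y axis.

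Nuclear genes of the mitochondrion, where TFAM acts, were mostly marked in both hairpins. Over the 4 mitochondrial lists together, 92 of 103 genes had a promoter peak in both hairpins, 1 in hairpin 1 alone and 1 in hairpin 2 alone. Each single gene is a share of 0.971% (0.0246 to 5.29). That interval includes the shares of all protein-coding genes, 2.86% in hairpin 1 alone and 3.02% in hairpin 2 alone. NDUFC2, a complex I subunit, had 4549 bp in hairpin 2, 0 bp in hairpin 1 and 4506 bp in the control. BDH2, a dehydrogenase linked to ketone body use, had 539 bp in hairpin 1 and 0 bp in the other lists. None of the 20 genes of mitochondrial DNA maintenance and expression was marked in one hairpin alone. The 2 most unequal ones were TOP1MT, the mitochondrial topoisomerase (3786 bp in hairpin 1, 2677 bp in hairpin 2, 1480 bp in the control), and MTERF1, a transcription terminator (1608, 1225 and 1404 bp). Around the citric acid cycle and its acetyl-CoA supply, PDK1, which inhibits pyruvate dehydrogenase, had 2137, 5965 and 2464 bp in the same order, and PDHA1, a subunit of that enzyme, had 2532, 1417 and 1985 bp.

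Genes that write or erase lysine acetylation were mostly marked in both hairpins, in 15 of 16 and 16 of 18 cases. So were 15 of the 19 genes listed as its readers or as elongation factors. The acetyltransferase NAA60 had 1641 bp in hairpin 2, 0 bp in hairpin 1 and 864 bp in the control. HDAC6, a cytoplasmic deacetylase, had 4481, 0 and 6565 bp in the same order. The readers and elongation factors split. MLLT1 and MLLT3, the ENL and AF9 readers of acetylated histones, were marked in hairpin 1 alone, MLLT1 with 2745 bp, 0 bp in hairpin 2 and 2040 bp in the control. HEXIM1, which inhibits P-TEFb together with 7SK, was marked in hairpin 2 alone, with 6405 bp, 0 bp in hairpin 1 and 6412 bp in the control. AFF1, a scaffold of the super elongation complex, had 2442 bp in hairpin 2, 0 bp in hairpin 1 and 4132 bp in the control.

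The 11 lists outside blood and mitochondria had 175 of 201 genes marked in both hairpins, 4 in hairpin 1 alone and 11 in hairpin 2 alone. The last 2 shares were 1.99% (0.545 to 5.02) and 5.47% (2.76 to 9.58), against 2.86% and 3.02% of all protein-coding genes. Nucleic acid sensing and interferon genes had 2 of 24 in hairpin 1 alone and 3 in hairpin 2 alone. IRF1, an interferon-induced factor, had 5266 bp in hairpin 1, 0 bp in hairpin 2 and 4778 bp in the control, and RIGI, an RNA sensor, had 1133, 0 and 1507 bp. STING1, the adaptor of cytosolic DNA sensing, had 0, 3356 and 2849 bp. IFIT1 and OAS3, both induced by interferon, were also marked in hairpin 2 alone, with 908 and 610 bp. HK1 (hexokinase), TXNRD1 (thioredoxin reductase) and KLF2 were single cases in hairpin 2 alone in the glycolysis, NRF2 and immediate early lists. HK1 had 7881 bp in hairpin 2, 0 bp in hairpin 1 and 6517 bp in the control.

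The lists of the RNA interference machinery, the integrated stress response and the proteasome had no gene marked in one hairpin alone. They hold 13, 20 and 16 genes, and the upper limits of their intervals are 24.7%, 16.8% and 20.6%. All 3 limits lie above the 2.86% and 3.02% of all protein-coding genes, so the lists are not set apart from the background. AGO1, an Argonaute protein, had 2468 bp in hairpin 1, 7633 bp in hairpin 2 and 2044 bp in the control, and TNRC6A, its partner, had 2016, 2552 and 2738 bp. FGF21, a stress hormone, had 2331, 3464 and 2228 bp, and PSAT1, of serine synthesis, had 2070, 1302 and 1868 bp. All 16 proteasome genes had a promoter peak in both hairpins, with PSMA3 at 2672, 3627 and 4553 bp and PSMB1 at 3846, 5087 and 4499 bp in hairpin 1, hairpin 2 and the control.

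Histone genes, chosen after their values were seen, were at 15 in hairpin 1 alone and 6 in hairpin 2 alone of 77. Those shares were 19.5% and 7.79%, against 2.86% and 3.02% of all protein-coding genes. Control peaks were present at 8 of the 15 and 2 of the 6. Histone genes encode the histones made during DNA replication and their variants. They lie in clusters where a single broad peak can cover several genes, so neighbouring genes can be counted from the same peak. H2AX, the variant phosphorylated at DNA breaks, had 6847 bp in hairpin 1, 771 bp in hairpin 2 and 4087 bp in the control. H3C14 had 7773, 0 and 7772 bp, and H4C14 had 4316, 0 and 4243 bp. H1-5, a linker histone, had 261, 5739 and 5911 bp. Their near-identical copies limit where reads can be placed.

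Short sequence words were counted on both strands in 300-base windows at region centres. No word contains another of the set. GGAAGT, a core of ETS sites, was in 24% (22.8 to 25.2) of regions of hairpin 1 alone, 18.5% (17.7 to 19.4) of hairpin 2 alone and 20.2% of all regions. TGANTCA, the AP-1 and NF-E2 core, went the other way, with 11.3% (10.5 to 12.3), 15.3% (14.5 to 16.1) and 11.4%. Outside promoters the shares for GGAAGT were 24.7% in hairpin 1 alone, 18.6% in hairpin 2 alone and 20.8% of all regions. For TGANTCA they were 12%, 16% and 14.8%, so that hairpin 2 alone lay near the background there and hairpin 1 alone below it. The word GATAA was in 34.6% of hairpin 1 alone, 36.5% of hairpin 2 alone and 29.9% of all regions, and the intervals of the hairpins overlapped. Outside promoters it was in 36.9%, 37.9% and 36.8%, near the background in both. The GC box GGGCGG was in 16.5%, 11.9% and 26.8%, and outside promoters in 12.1%, 9.59% and 13.7%. The E box CACGTG was in 4.92%, 3.87% and 5.05%. These words describe the sequence and are not sites of a factor.

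In the 150 bases before the start site, where TAL1 and RHAG have 1 GATAA word each and ALAS2 has 2, the word was present in 8.98% of all coding promoters. It was in 7.80% (5.75 to 10.3) of promoters marked in hairpin 1 alone, 10.9% (8.50 to 13.6) of those in hairpin 2 alone and 5.12% of those in both. The zinc finger promoters marked in hairpin 2 alone had a median of 10 CG dinucleotides in that stretch, against 13 for zinc finger promoters marked in both hairpins and 12 for all coding promoters. Their median G+C over 2 kb was 51.8%, against 54.7% and 55.9%.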

How the data were processed

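The authors deposited 1 peak list per library, with start, end and a score per peak; the score is their own value, was at least 50 in these lists and served only to rank peaks within a list. Reads fitting exactly 1 place in hg19 were kept, per the labels' protocols. Bowtie 0.12.7, Picard and hg19 are named without roles, per the submitters' processing notes, and peak names carry a MACS prefix, per the files. No source used here gives the caller's version, its threshold, whether it used the input, or the read depth.

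Peaks of the hairpins overlapping by at least 1 bp were joined into regions. Gene models were those of GENCODE release 44 lifted to GRCh37, with canonical start sites for 19869 of 20149 protein-coding genes, and sequences from the GRCh37 genome. A table of promoters on GRCh38 was not used. Repeated sequence was the share of 32-base words, taken every 25 bases, that occur again in the genome on either strand. Positions are 1-based.

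Genes were named by rule: the 10 promoter regions and 6 other regions of each hairpin alone with the highest score percentile, the 6 shared promoters with the largest and the 6 with the smallest width ratio at score percentile 50 or more in both lists, up to 4 members of each of 23 gene lists with a promoter peak in one hairpin alone or otherwise the 2 with the most unequal coverage, TFAM and the globin genes, and the 3 windows furthest each way. The text says which other names were picked with their values in view; GATA1, GATA2 and LMO2 were added to describe the cells. The 23 lists hold 425 distinct genes, all found. A few items chosen by this rule are left out of the text. The members and lists were chosen with earlier results of these data known.

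Tested on simulated lists of 6000 regions, the counts per class were exact in 20 of 20 runs. Alternatives were lists of equal length, the higher-scoring 50% of each list, peaks within 1 kb merged, an overlap of 50% of the shorter peak, no peak within 1 kb as absence, autosomes alone, promoters of 2.5 kb, start sites of all basic transcripts, no peaks of 5 kb or wider and, chosen after seeing the data, repeated sequence left out. The software was numba 0.67.0, SciPy 1.17.1, pandas 2.3.3, numpy 2.4.6 and matplotlib 3.10.9 under Python 3.11.15.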

Additional observations from a re-analysis of the deposited data

How the results depend on the processing

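No paired analysis was possible because each hairpin has 1 library. Of 116 recomputed values, 29 moved and 87 stayed within the limit used, which for counts was 1.5 times the reported one. Only the median log2 width ratio could change sign, and it did not. The order between the hairpins turned for the promoter counts at equal list lengths (663 and 508). It also turned for the blood-cell counts (8 and 9) and median G+C among the higher-scoring 50%, and on chromosome 14 at equal list lengths. Cutting the hairpin 2 list to equal length lowers its share over all regions by construction. The turn on chromosome 14 therefore does not set that chromosome apart. In the higher-scoring 50% of each list, regions of hairpin 1 alone numbered 1458 and of hairpin 2 alone 3035. Over the full lists only 381 and 860 regions alone were at score percentile 50 or more. Most of the 1458 and 3035 regions therefore overlap a weaker peak of the other hairpin. Their promoter shares were 30.32% and 22.7%, against 73.66% of shared regions in that setting. Their median G+C was 51.52% and 48.58%, against 52.78% for shared regions. In the same setting the median log2 width ratio was 0.06925, zinc finger promoters in hairpin 1 alone numbered 5 and blood-cell promoters in hairpin 1 alone 8. Wide peaks without a counterpart made up 18.24% in hairpin 1 and 17.82% in hairpin 2, so the difference between the hairpins was nearly gone there. The hairpin 2 share of regions alone was 68.87% on chromosome 14 and 76.92% on the X chromosome. With equal list lengths the promoter share was 8.068% in hairpin 2 alone and 49.99% in shared regions, shared G+C 50.98%, the log2 width ratio 0.08976, wide hairpin 1 peaks without a counterpart 16.96%, and the hairpin 2 share 43.57% on chromosome 14 and 56.73% on the X chromosome. With promoters of 2.5 kb the promoter shares were 12.48%, 8.36% and 49.08% in hairpin 1 alone, hairpin 2 alone and shared regions. Without peaks of 5 kb or wider the promoter share was 9.313% in hairpin 1 alone and 47.38% in shared regions, shared G+C was 51.02%, and blood-cell promoters in hairpin 1 alone numbered 10. The causes of these moves were not tested. With 1 library a side and no read depth, no limit on what the lists could miss can be given.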
